A study of Mus musculus with 2 samples.

Results

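The linker histone H1 genes are described here in ependymal cells, a ciliated lining around the central canal of the spinal cord, and in endothelial cells, which line blood vessels. The 7 members, Hist1h1a, Hist1h1b, Hist1h1c, Hist1h1d, Hist1h1e, H1f0 and H1fx, are 7 of the 24071 genes in the deposited tables. They were chosen by family membership, and the family was picked from these libraries because Hist1h1e was among the genes most raised in the traced library. The Hist1h1e difference between the libraries in ependymal cells is therefore given as a description only. The data were 2 single-cell RNA libraries of mouse spinal cord, CD133+ non-traced and CD133+ DNGR-1 traced. All mice were adult C57BL/6j animals of 10 to 12 weeks, with Cre at both copies of Clec9a and the loxP-stop-loxP tdTomato reporter at both copies of R26. Clec9a encodes the receptor DNGR-1, and the paper describes mice of this genotype as Clec9a-deficient. Cells in which the Clec9a locus drove Cre at any time, and their progeny, can carry tdTomato, whatever they express when collected. The paper attributes part of the unlabeled ependymal cells to incomplete recombination, so non-traced cells may include some with such a history. Both fractions were live CD45- CD133+ cells left after myelin depletion, sorted into separate tubes by the tracer. Each group was 1 library, and how many mice went into it is not given in the sources used here, so no test between libraries was possible and every interval below covers counting error only.

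Linker histones bind the outside of the nucleosome where DNA enters and leaves it, and help to fold nucleosome arrays into denser chromatin. Hist1h1a to Hist1h1e lie in the main histone gene cluster and are replication-dependent, which means that they are mainly transcribed while DNA is copied. Messenger RNAs of this kind usually end in a stem-loop that binds the protein Slbp, instead of a poly(A) tail. H1f0 and H1fx lie outside that cluster and give polyadenylated messages in cells that do not divide. H1f0 is known to accumulate as cells leave the cell cycle and differentiate. The kit captures RNA by poly(A), so the counts of the Hist1h1 genes show only messages that carried or contained a run of A, and levels of different members are not directly comparable.

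In the GENCODE vM21 annotation of GRCm38 each member was a gene of 1 transcript and 1 exon. Hist1h1b lay at chr13:21779883-21780625 on the minus strand, and Hist1h1d at chr13:23553262-23560686, Hist1h1c at chr13:23738808-23740367 and Hist1h1a at chr13:23763666-23764406 on the plus strand. Hist1h1e lay at chr13:23620629-23622558 on the minus strand, where its last 496 bases overlapped the same-strand core histone gene Hist1h2be. H1f0 lay at chr15:79028450-79030504 on the plus strand, and H1fx at chr6:87980421-87981637 on the minus strand, where 755 bases overlapped the antisense gene Gm5577. Reads in such overlaps can be assigned to either gene or dropped. Hist1h2be itself was at 74.2 CPM (UMIs of a gene per 1000000 UMIs of the group) in ependymal cells of the traced library and 69.6 in those of the non-traced library, and Gm5577 had 101 UMIs (unique molecular identifiers, tags of single captured molecules) in the whole non-traced and 207 in the whole traced library.

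The promoters are printed for 4 members that behaved differently in the results below. Hist1h1e and Hist1h1b differed between the libraries, and Hist1h1c did not. H1fx was higher in dividing cells without belonging to the replication-dependent genes. No link between promoter sequence and level was tested. Each run is the 130 bases before the RefSeq transcription start (GRCm38.p6), 5′ to 3′ on the gene's strand, with capitals for AAACACA (known as the H1 box), CCAAT and TATANA.
Hist1h1e, chr13:23622559-23622688: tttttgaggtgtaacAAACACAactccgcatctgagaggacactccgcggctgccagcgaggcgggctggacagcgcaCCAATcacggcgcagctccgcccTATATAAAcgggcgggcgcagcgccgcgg
Hist1h1b, chr13:21780626-21780755: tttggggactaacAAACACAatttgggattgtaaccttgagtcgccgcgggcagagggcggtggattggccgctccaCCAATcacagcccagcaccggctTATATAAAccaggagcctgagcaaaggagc
Hist1h1c, chr13:23738677-23738806: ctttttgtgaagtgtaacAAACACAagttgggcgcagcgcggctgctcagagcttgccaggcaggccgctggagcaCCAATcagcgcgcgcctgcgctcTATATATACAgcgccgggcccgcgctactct
H1fx, chr6:87981483-87981612: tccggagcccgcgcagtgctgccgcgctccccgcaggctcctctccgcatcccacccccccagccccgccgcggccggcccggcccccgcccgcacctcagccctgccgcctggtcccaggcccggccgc
The motif AAACACA began 115 bases before the start in Hist1h1e, 117 in Hist1h1b, 112 in Hist1h1c and 122 in Hist1h1d, and was not found in the window of Hist1h1a. CCAAT stood 51 to 56 bases and TATANA 28 to 33 bases before the start in all 5 Hist1h1 genes. In the 300-base windows around the start (250 before, 50 after, both strands), the windows of H1f0 and H1fx held none of the 3 motifs. Of 32851 RefSeq windows of this length, 7.18% held AAACACA, 37.4% CCAAT, 24.7% TATANA and 0.959% all 3. TATANA matches overlapped one another in the runs of Hist1h1b, Hist1h1c and Hist1h1e, and Hist1h1c held the same 3 motifs as Hist1h1e.

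The ends of the transcripts are shown because they decide how a poly(A) kit can capture them. The runs below are taken from the GENCODE transcripts, 5′ to 3′, with the stem-loop in capitals.
Hist1h1e, chr13:23621782-23621797: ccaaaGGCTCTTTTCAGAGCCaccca
Hist1h1c, chr13:23739512-23739527: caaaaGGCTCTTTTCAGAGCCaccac
Hist1h1d, chr13:23555787-23555802: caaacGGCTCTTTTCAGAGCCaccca
Hist1h1a, chr13:23764392-23764406: ccaacGGCTCTTTTCAGAGC
The core of this stem-loop, allowing any base at 1 position of its loop, was found in 29 of 64 core histone genes of the Hist clusters (45.3%) and in 67 of 55271 other genes (0.121%). No match was found in the GENCODE transcripts of Hist1h1b, H1f0 or H1fx, and that of Hist1h1b ends 51 bases before the RefSeq one. The GENCODE model of Hist1h1e ran 1153 bases past the stem-loop and held no AATAAA or ATTAAA, the hexamers that usually precede a poly(A) tail. The models of Hist1h1c and Hist1h1d ran 840 and 4884 bases past it, with 2 and 15 such hexamers in the whole transcript, and H1f0 and H1fx held 3 and 1.

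There were 25411 cells (median 7218 UMIs) in the non-traced and 4825 cells (median 8566 UMIs) in the traced library, and 42 barcodes occurred in both. Cells were clustered without histone genes and named from markers. Of the non-traced cells 1160 (4.56%) and of the traced cells 4761 (98.7%) were ependymal-like, and 21066 (82.9%) and 53 (1.10%) were endothelial-like. The 10 ependymal markers summed to 8395 and 7824 CPM in the ependymal-like cells of the non-traced and traced library, and to 14.4 and 616 CPM in the endothelial-like cells. The 8 endothelial markers summed to 430 and 30.3 CPM in the ependymal-like cells and 24270 and 20269 CPM in the endothelial-like cells, so the 53 traced endothelial-like cells carried ependymal RNA at 7.88% of the ependymal-like level and the non-traced ependymal-like cells carried endothelial RNA at 1.77% of the endothelial-like level. In the traced library 26 of the ependymal-like cells sat in clusters led by endothelial genes. The reporter row tdTomato-WPRE read 318 CPM in the ependymal-like cells of the traced library and 73.0 CPM in those of the other. In the endothelial-like cells it read 337 and 65.3 CPM.

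In ependymal-like cells, Hist1h1e and Hist1h1b were higher in the traced library and the other members compared differed little. Hist1h1e, which RefSeq calls H1f4, was at 38.0 CPM (95% Poisson interval 34 to 42.3; 328 UMIs) in the non-traced and at 129 CPM (126 to 132; 5914 UMIs) in the traced cells. The ratio was 3.40 (3.04 to 3.81), a difference of 1.74 in log2(CPM + 1). Among the 9570 genes that reached 10 CPM in 1 or both libraries, this difference ranked 7 from the top. Hist1h1b (H1f5), a variant that is known for its rise in proliferating cells, was at 2.09 CPM (1.24 to 3.30; 18 UMIs) and 15.7 CPM (14.6 to 16.9; 719 UMIs). Its ratio was 7.53 (4.73 to 12.8), with rank 1 of the same genes, but this value rested largely on 21 cells and on their class names, as given below. Of the 5 members that reached 10 CPM and so were compared, 2 were at least 2-fold higher (called) in the traced library and 0 lower, where 0.784% of all 9570 genes were higher and 1.34% lower by that much. Since these values chose the family, nothing is read from that count.

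The 3 remaining members of at least 10 CPM lay close together in the libraries. Hist1h1c (H1f2), a replication-dependent gene that is also expressed in resting cells, was at 105 CPM (97.9 to 112) and 106 CPM (104 to 110), a ratio of 1.02 (0.948 to 1.09). H1f0 was at 59.2 CPM (54.2 to 64.6) and 74.6 CPM (72.1 to 77.1), a ratio of 1.26 (1.15 to 1.39). H1fx (H1f10), a divergent replication-independent variant, was at 25.3 CPM (22.0 to 28.8) and 27.6 CPM (26.1 to 29.1), a ratio of 1.09 (0.945 to 1.27). The counting intervals of the 2 libraries overlapped for Hist1h1c and H1fx and did not for H1f0. Hist1h1a (H1f1) and Hist1h1d (H1f3) stayed under 10 CPM, with 0.58 and 2.88 CPM for Hist1h1a (5 and 132 UMIs) and 0.70 and 2.49 CPM for Hist1h1d (6 and 114 UMIs). The median difference was 0.33 over the 5 members and 0.03 over all genes compared.

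**Figure D1:**
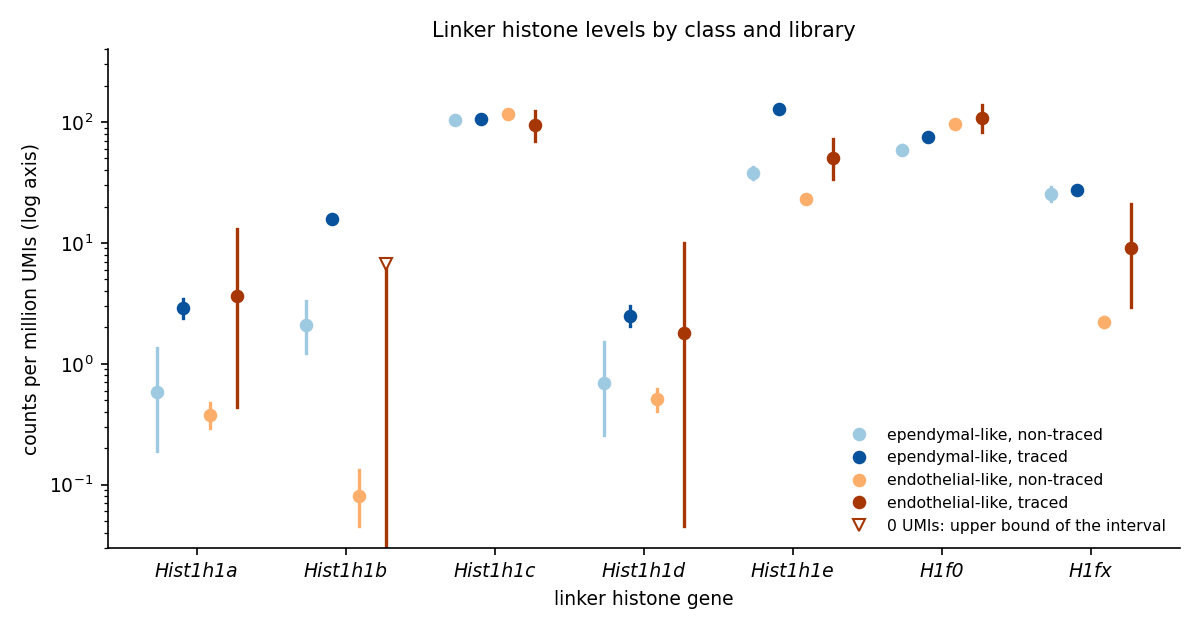
Level of each linker histone gene in CPM (log axis) in ependymal-like and endothelial-like cells of the 2 libraries; points are summed counts of 1 library, bars are 95% Poisson intervals, and the open triangle is the upper bound where 0 UMIs were counted. Hist1h1e stands at 129 CPM in traced ependymal-like cells and between 23.3 and 50.5 CPM in the other groups, while Hist1h1c stays between 93.7 and 117 CPM in all 4.

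The Hist1h1e difference was spread over many cells. In the non-traced library 899 of 1160 ependymal-like cells had no Hist1h1e UMI, 206 had 1, 54 had 2 to 4 and 1 had 5 or more. In the traced library 1970 of 4761 had none, 1412 had 1, 1220 had 2 to 4 and 159 had 5 or more. After each cell was thinned to 1000 UMIs, 3.36% of non-traced (2.40 to 4.57, exact 95% interval) and 11.4% of traced cells (10.5 to 12.3) had a Hist1h1e UMI, against 22.5% and 58.6% before thinning. In endothelial-like cells the thinned shares were 2.32% (2.12 to 2.53) and 1.89% (0.048 to 10.1; 1 of 53 cells), and those before thinning 16.3% and 28.3%, at median depths of 6936.5 and 8800 UMIs. The part of free RNA in the droplets in these shares was not tested. The 1% of traced ependymal-like cells with the most Hist1h1e held 13.2% of its UMIs, whereas the top 1% for Hist1h1b held 89.6%.

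Hist1h1e was higher in the traced cells of each cluster that held at least 20 ependymal-like cells of both libraries. These clusters reuse the cells compared above, and the comparison was added after the data had been seen. In the integrated cluster 14, led by Ucma, Hist1h1e was at 36.0 CPM in the 376 non-traced cells and at 130 CPM in the 194 traced ones, a ratio of 3.62 (2.86 to 4.62). When the libraries were clustered together without integration, the ratio was 3.0 in cluster 6, 3.57 in cluster 8, 3.33 in cluster 10 and 3.64 in cluster 14. In cluster 17, which held the dividing cells, Hist1h1e was at 231 CPM in the 21 non-traced cells and at 555 CPM in the 77 traced ones, a ratio of 2.41. Outside cluster 17, Hist1h1e was the 1 of 4 members of at least 10 CPM that was 2-fold higher, where 1.43% of all genes were higher and 1.48% lower in the integrated cluster 14, and 0.881% to 2.12% were higher and 0.881% to 1.46% lower in the merged clusters (1.2% lower in cluster 14). In cluster 17 it was 2 of 7, Hist1h1e and Hist1h1a (77 and 3 UMIs), where 14.3% of all genes were higher and 13.2% lower, and its non-traced cells were led by genes of myeloid cells. Among the integrated clusters with at least 50 ependymal-like cells of a library, the lowest of 6 traced ones stood at 82.9 CPM and the higher of 2 non-traced ones at 38.9 CPM, while the 21 non-traced cells of the merged cluster 17 stood above the traced cells of the other merged clusters. Cells without a UMI of any of the 24 division genes described below gave 122 CPM when traced and 36.8 CPM when not.

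The other members varied among the ependymal-like clusters in their own ways. Hist1h1c ran from 71.6 to 166 CPM over the 6 traced clusters and was at 74.5 and 119 CPM in the 2 non-traced ones, and H1f0 ran from 59.5 to 96.7 CPM and was at 56.2 and 60.6 CPM. For Hist1h1c the ranges of the libraries overlapped, so its spread among clusters exceeded its difference between libraries. The traced cluster 13 was the highest of the 6 in Hist1h1c and H1f0 and the lowest in Hist1h1e. H1fx was even, at 22.6 to 26.4 CPM in the traced and 21.7 and 26.9 CPM in the non-traced clusters.

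**Figure D2:**
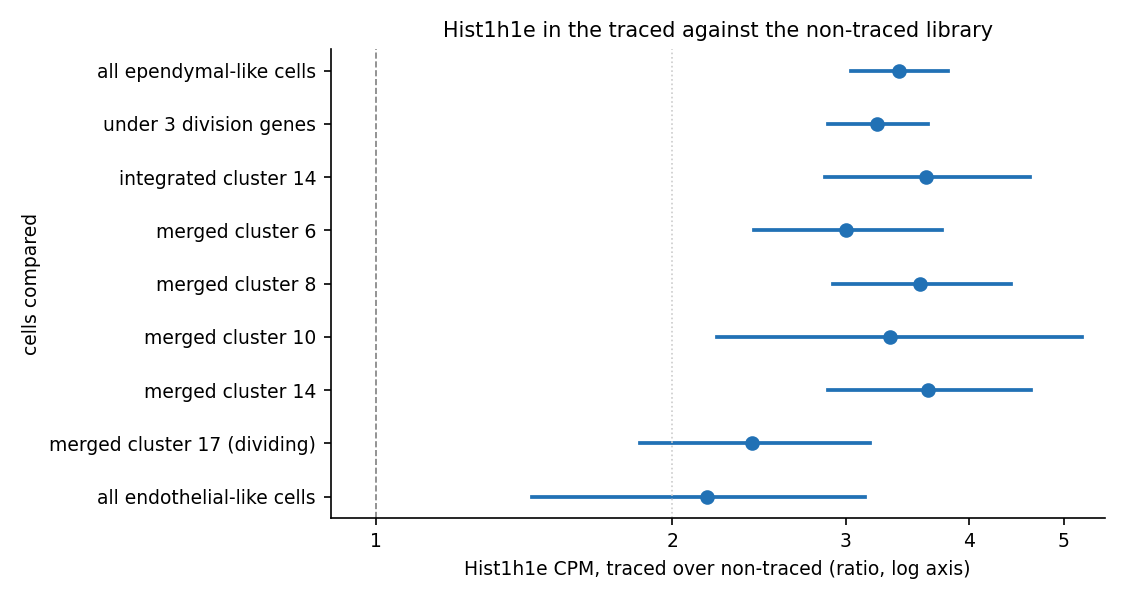
Ratio of Hist1h1e CPM, traced over non-traced (log axis), in all ependymal-like cells, in those with under 3 division genes, in the ependymal-like cells of each cluster that holds both libraries, and in endothelial-like cells; points are ratios, bars exact 95% intervals, dashed and dotted lines mark 1 and 2. Ratios run from 2.17 in endothelial-like cells to 3.64 in merged cluster 14, and all intervals lie above 1.

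Hist1h1e was also read against the reporter and against signs of RNA composition. In ependymal-like cells with under 10 division genes, traced cells with 0 tdTomato-WPRE UMIs were at 112 CPM of Hist1h1e (102 to 122; 545 cells), those with 1 to 2 at 115, with 3 to 5 at 121 and with 6 or more at 128 CPM (120 to 136; 689 cells). Non-traced cells with 0, 1 to 2 and 3 to 5 such UMIs were at 38.1, 36.6 and 53.9 CPM, the last from 25 cells and 14 Hist1h1e UMIs (29.5 to 90.5). These bins split the cells whose difference chose the family, and are a description. The reporter row was at similar levels in both classes of a library, as given above, and the part of free RNA in the bins was not tested. The reporter bins of the traced library spanned 112 to 128 CPM at rising median depths of 7511 to 9671 UMIs.

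Gm42418, a row that overlaps ribosomal RNA repeats and rises with ribosomal carry-over, was also higher in the traced ependymal-like cells, at 33442 against 13072 CPM (difference 1.36 on the log2 scale). Mir6236, another row of this kind, was at 292 and 105 CPM (1.47), and Malat1 at 62433 and 58365 CPM (0.10). Among the ependymal-like clusters Gm42418 and Hist1h1e had different orders. The traced cluster 8, led by Socs3, Atf3 and Egr1, had 8881 CPM of Gm42418 and the highest Hist1h1e level of 140 CPM. Both non-traced ependymal-like clusters had more Gm42418 (13270 and 12645 CPM). The other traced clusters of at least 50 cells had more than those, at 25972 to 83478 CPM. The highest of them, cluster 10, had 103 CPM of Hist1h1e. With mitochondrial, reporter and Gm42418 rows taken out of the total, the Hist1h1e difference was 1.75. It was 1.96 without the 488 non-traced and 7 traced ependymal-like cells that had UMIs of 2 vascular markers. The part of RNA composition in the Hist1h1e difference was not tested.

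The Hist1h1b difference rested largely, but not wholly, on dividing cells and on how they were named. Of the 719 traced Hist1h1b UMIs, 595 came from 21 cells with UMIs of at least 10 of 24 division genes, a list of mitosis and spindle genes without histones. The non-traced library had 15 such cells, of which 2 were ependymal-like, 1 was mixed and 12 stayed unnamed, in a cluster whose leading genes were those of blood cells, such as S100a9 and Hbb-bs. Those 12 cells held 166 Hist1h1b UMIs (577 CPM), and 6 of them had a UMI of none of the 10 ependymal markers. Without integration, 7 of the 15 were named ependymal-like, in a cluster led in that library by Lyz2, S100a9 and S100a8, genes of myeloid cells. Hist1h1b was then at 11.5 against 15.7 CPM, and the difference was 0.42 in place of 2.44. When whole clusters were named, none of the traced dividing cells was ependymal-like, while 2 non-traced ones were. Hist1h1b was then at 1.78 against 2.72 CPM, and the difference was again 0.42. This value therefore sets traced cells without dividing cells against non-traced cells that kept some. Hist1h1e, by contrast, was at 42.5 against 129 CPM and at 33.7 against 119 CPM under these namings. In cells with under 3 division genes, 1 of the 4 members compared, Hist1h1e, passed 2-fold (36.9 CPM non-traced and 119 CPM traced), where 0.68% of all genes were higher and 1.42% lower. Hist1h1b there was at 0.72 CPM (6 UMIs) in the non-traced and 2.62 CPM (104 UMIs) in the traced library, under the 10 CPM asked of a gene compared. Its ratio was 3.64 (1.62 to 10.1). The difference in such cells was 1.07, and it was 1.07 without integration and 1.14 with whole clusters named.

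In the traced cells with the most division genes, 6 of the 7 members were at least 2-fold higher than in cells with none, where 15.8% of all genes were higher and 12.3% lower, and H1f0 was not. Hist1h1a, Hist1h1b and Hist1h1d reached 10 CPM only in the dividing cells, so that they had to differ, and the count is a description. The cut for cycling cells, at least 3 of the 24 division genes, took 30 of 1160 non-traced (2.59%) and 451 of 4761 traced ependymal-like cells (9.47%). Most of these did not look like dividing cells: of the 397 traced cells with 3 or 4 such genes, 304 had a UMI of Tpx2, 273 of Kif11 and 245 of Cenpf, but 6 had one of Mki67, a marker of proliferation. At this cut 4 of 7 members were at least 2-fold higher in the traced library (1.19% of all genes compared, and 0.0106% lower) and 2 of 5 in the non-traced library (6.65%, and 5.02% lower). Cells were therefore also grouped by the number of division genes, a choice made after the data had been seen.

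Up to 4 division genes the levels of the members lay close together. In traced cells with 0, 1 to 2 and 3 to 4 division genes, Hist1h1e was at 122, 118 and 117 CPM, and Hist1h1b at 2.47, 2.69 and 2.10 CPM. In the 33 cells with 5 to 9 such genes, Hist1h1b reached 20.3 CPM (9.29 to 38.6), H1fx 94.8 (68.3 to 128), H1f0 158 (123 to 200) and Hist1h1c 183 (145 to 227), while Hist1h1e was at 140 (107 to 179). In these cells Hist1h1b, Hist1h1c and the 2 replication-independent genes were already above the groups with fewer division genes. In the 21 cells with at least 10, Hist1h1b was at 1640 CPM (1511 to 1777), Hist1h1e at 1364 (1247 to 1490), H1fx at 397 (335 to 467), Hist1h1c at 298 (244 to 359), Hist1h1a at 198 (155 to 250), Hist1h1d at 190 (148 to 241) and H1f0 at 138 (102 to 182).

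Against cells with 0 division genes, the ratio in these 21 cells was 665 for Hist1h1b (466 to 981), 11.1 for Hist1h1e (10.1 to 12.3), 15.6 for H1fx (12.7 to 19.0), 2.81 for Hist1h1c (2.29 to 3.42) and 1.85 for H1f0 (1.36 to 2.46). In all, 10348 genes were compared. Hist1h1a and Hist1h1d, near 1 CPM elsewhere, differed by 6.64 and 6.69 on the log2 scale. H1fx, which gives a polyadenylated message and is not counted among the replication-dependent genes, thus had a larger ratio than Hist1h1c or Hist1h1e. The 2 non-traced ependymal-like cells of this kind held 9 Hist1h1b and 11 H1fx UMIs and 0 of Hist1h1c, too few to compare, in a comparison where 25% of all genes were higher and 50.3% lower.

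**Figure D3:**
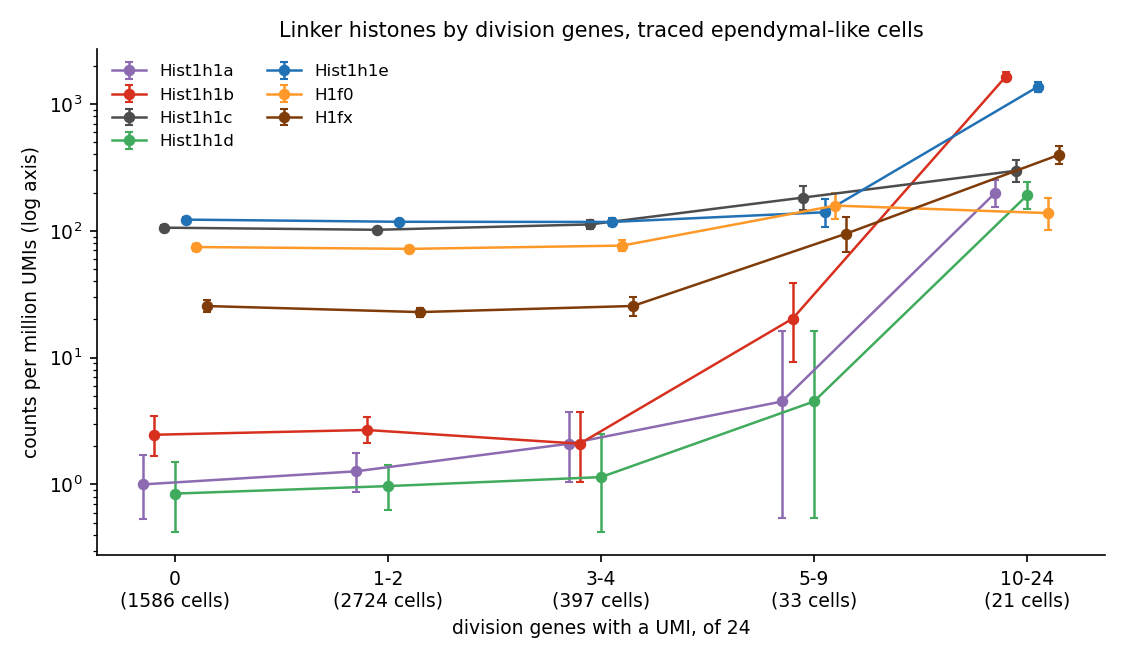
CPM (log axis) of each linker histone gene in traced ependymal-like cells, grouped by how many of 24 division genes had a UMI; points are summed counts, bars 95% Poisson intervals, and cell numbers stand under each group. Levels are nearly flat up to 4 division genes, and in the 21 cells with at least 10 Hist1h1b reaches 1640 CPM from 2.47 CPM in cells with 0.

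Among the 21 dividing traced cells the Hist1h1 genes were unevenly distributed. Hist1h1b ranged from 0 to 99 UMIs a cell with a median of 2, and Hist1h1e from 0 to 93 with a median of 6. The 8 cells with the most Hist1h1b (40 to 99 UMIs) held 96.1% of its UMIs, 89.5% of those of Hist1h1e (24 to 93 UMIs a cell against 0 to 14 in the other 13), 95.8% of Hist1h1a, 92.8% of Hist1h1d and 83.3% of Hist1h1c. The same 8 cells held 54.2% of the H1fx and 50% of the H1f0 UMIs. Hist1h1 genes therefore went together in single cells, and H1fx and H1f0 were spread over both sets, with H1fx found in 20 of the 21 cells. The 8 cells also held 86.8% of UMIs of replication-dependent core histones (70 to 255 a cell against 0 to 38) and 69.0% of UMIs of 20 replication genes. They were picked on Hist1h1b after the data had been seen, and held 15156 to 24668 UMIs in all, against 8411 to 26526 in the other 13. The 12 unnamed dividing cells of the non-traced library showed 0 to 44 Hist1h1b UMIs with a median of 12.5 and 0 to 18 Hist1h1e UMIs with a median of 7.

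**Figure D4:**
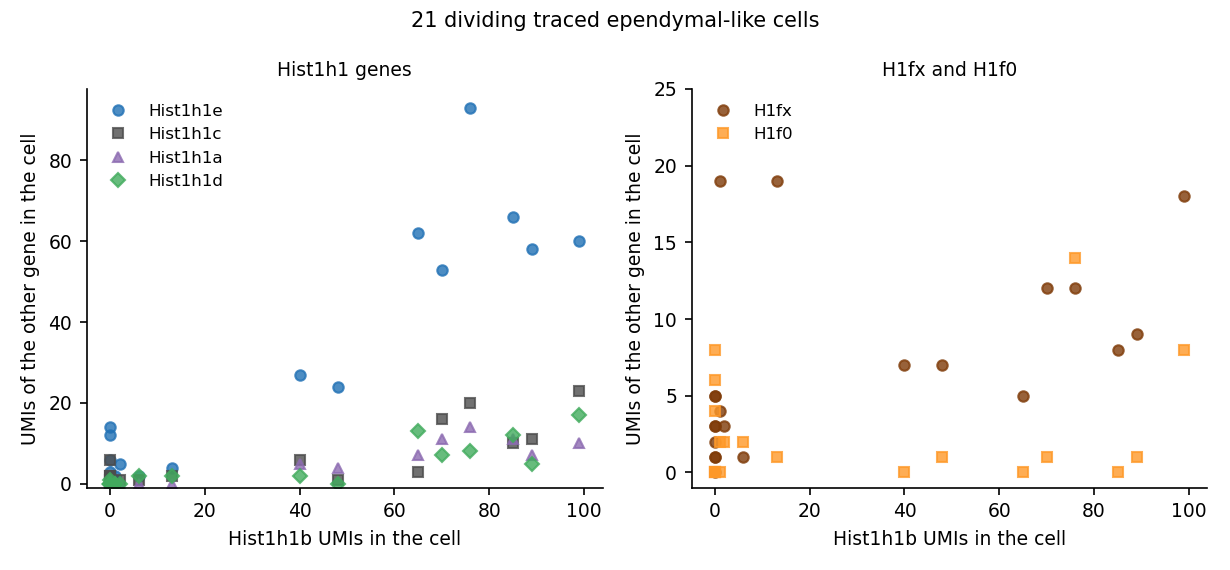
UMIs per cell in the 21 traced ependymal-like cells with at least 10 division genes, with Hist1h1b on the x axis and the other Hist1h1 genes (left) or H1fx and H1f0 (right) on the y axis; each symbol is 1 gene in 1 cell. The 8 cells with at least 40 Hist1h1b UMIs all have at least 24 Hist1h1e UMIs, while H1fx reaches 19 UMIs in cells with 1 and 13 Hist1h1b UMIs.

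Dividing cells of both libraries met in the merged cluster 17, with 77 traced and 21 non-traced cells, of which 21 and 7 had at least 10 division genes. Hist1h1b was at 562 CPM (609 UMIs) in the traced and 348 CPM (95 UMIs) in the non-traced cells, a ratio of 1.62 (1.30 to 2.03), and Hist1h1c and H1fx had ratios of 1.90 (1.27 to 2.96) and 1.04 (0.753 to 1.46). The non-traced cells of that cluster were led by the myeloid genes named above, so the cells compared may not be of matched type.

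In endothelial-like cells Hist1h1e was the only member of at least 10 CPM that differed by 2-fold between the libraries, in a comparison with many such genes. In the traced library Hist1h1e was at 50.5 CPM (33.5 to 72.9), from 28 UMIs in 53 cells, and in the non-traced library at 23.3 CPM (22.6 to 24; 4315 UMIs), a ratio of 2.17 (1.44 to 3.14). This was 1 of 3 members compared, where 8.61% of 9164 genes were higher and 2.28% lower by that much, and its rank was 700. All genes compared had a median difference of 0.10, and with that median set to 0 the Hist1h1e difference was 0.98 and no member was called. Hist1h1c was at 93.7 against 117 CPM (ratio 0.803, 0.599 to 1.05) and H1f0 at 108 against 95.5 CPM (1.13, 0.864 to 1.46). H1fx, under 10 CPM, was at 9.01 against 2.23 CPM (5 and 414 UMIs). Its ratio of 4.04 (1.30 to 9.50) was larger than that of Hist1h1e. Hist1h1a was at 3.60 against 0.38 CPM (2 and 70 UMIs; 9.55, 1.13 to 35.8). Hist1h1d had 1 traced UMI (3.56, 0.089 to 20.3) and Hist1h1b had 0. The traced endothelial-like cells carried ependymal RNA, as given above, and its part in these values was not tested. The 8 non-traced endothelial-like clusters ran from 13.7 to 37.8 CPM of Hist1h1e, the highest level standing in the cluster that also had the most Gm42418 of the 8 (14555 CPM).

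Within the non-traced library, H1fx differed most between ependymal-like and endothelial-like cells among the 4 members of at least 10 CPM. H1fx had 218 UMIs (25.3 CPM) in ependymal-like and 414 UMIs (2.23 CPM) in endothelial-like cells, a ratio of 11.3 (9.56 to 13.4). It was the 1 of 4 members compared past 2-fold, where 27.1% of genes were higher and 19.6% lower. The 8 endothelial-like clusters spanned 0 to 6.97 CPM of H1fx and the 2 ependymal-like ones 21.7 and 26.9 CPM, with no overlap. Thinned to 1000 UMIs, 2.93% of ependymal-like (2.04 to 4.07) and 0.21% of endothelial-like cells (0.15 to 0.28) had an H1fx UMI, against 13.9% and 1.69% before thinning at median depths of 7064 and 6936.5 UMIs. Hist1h1b, under 10 CPM in both classes, was at 2.09 and 0.08 CPM (18 and 15 UMIs), a ratio of 25.8 (12.3 to 55.0) that was larger than that of H1fx. Hist1h1e was at 38.0 and 23.3 CPM, a ratio of 1.63 (1.46 to 1.83). H1f0 ran the other way, at 59.2 and 95.5 CPM (ratio 0.620, 0.567 to 0.677), and Hist1h1c at 105 and 117 CPM (0.896, 0.838 to 0.958).

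In the traced library the same comparison rested on 53 endothelial-like cells. H1fx was at 27.6 against 9.01 CPM (5 UMIs; ratio 3.06, 1.31 to 9.44), Hist1h1e at 129 against 50.5 CPM (2.56, 1.77 to 3.86) and H1f0 at 74.6 against 108 CPM (0.690, 0.535 to 0.906). Hist1h1b had 0 UMIs in these cells, where 3 counts would be 5.41 CPM, so its call as higher depends on the pseudocount. With it, 3 of 5 members compared were at least 2-fold higher, where 26.8% of genes were higher and 21.0% lower. In both libraries H1f0 was thus lower, and H1fx and Hist1h1e higher, in ependymal-like than in endothelial-like cells.

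The make-up of all linker histone UMIs followed from these levels. In non-traced ependymal-like cells 45.4% of 1989 such UMIs were Hist1h1c, 25.7% H1f0, 16.5% Hist1h1e (14.9 to 18.2) and 11% H1fx. In traced ependymal-like cells 36.0% of 16434 were Hist1h1e (35.3 to 36.7), 29.7% Hist1h1c, 20.8% H1f0, 7.69% H1fx and 4.38% Hist1h1b. Hist1h1e thus had the largest share in the traced and Hist1h1c in the non-traced cells. In endothelial-like cells Hist1h1c and H1f0 made up most, with 48.9% and 40.0% of 44289 UMIs in the non-traced library. The dividing traced cells were led by Hist1h1b with 38.8% and Hist1h1e with 32.3% of 1533 UMIs, and H1f0 had 3.26%. The 7 genes summed to 230.4 CPM in the ependymal-like cells of the non-traced and to 359 CPM in those of the traced library. These are shares of captured molecules, and poly(A) capture can differ between members.

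**Figure D5:**
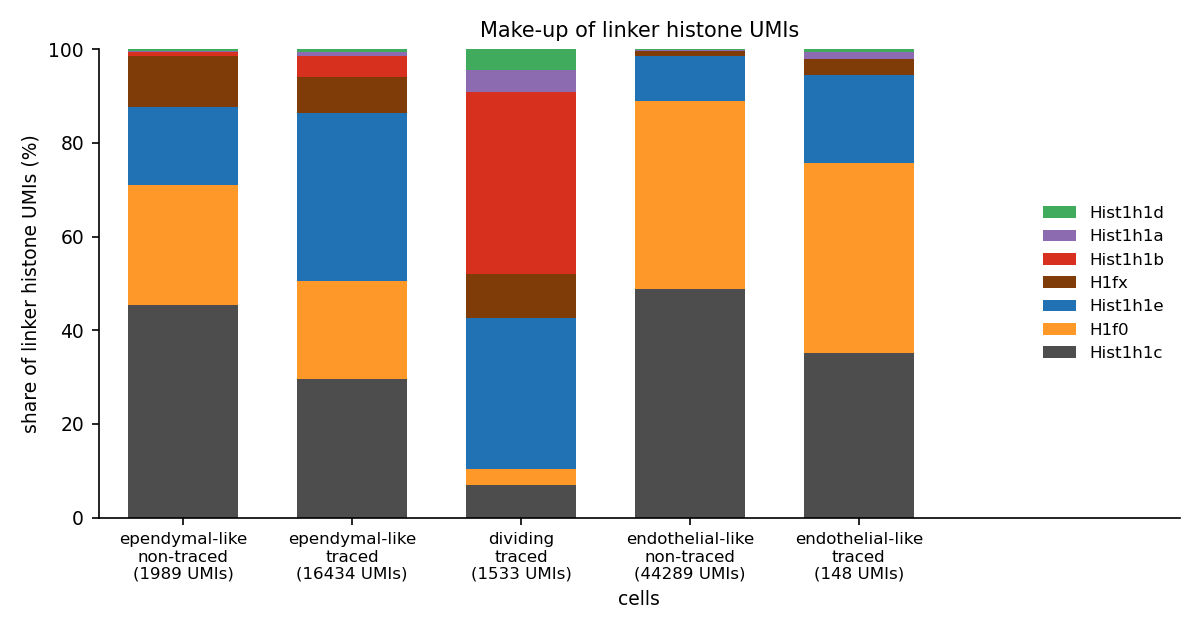
Share of all linker histone UMIs taken by each gene (percent, bars stacked to 100) in ependymal-like and endothelial-like cells of each library and in the 21 dividing traced cells; the number of UMIs stands under each bar. Hist1h1e takes 16.5% in the ependymal-like cells of the non-traced and 36.0% in those of the traced library, and Hist1h1b takes 38.8% in dividing cells.

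Genes that act with linker histones were followed as lists. Core histones form the nucleosome that H1 binds. Of 56 replication-dependent core histone rows, 9 reached 10 CPM in ependymal-like cells and 0 were 2-fold higher or lower in the traced library. Of all genes compared, 0.784% were higher and 1.34% lower. The median difference of the core histone rows was -0.41 against 0.03 for all genes. With the traced value given before the non-traced one, Hist1h2bc was at 493 and 632 CPM, Hist1h4h at 225 and 224 CPM, and Hist1h4i at 66.4 and 88.7 CPM. Of 9 replication-independent core histone variants 8 were compared and 0 called, among them H3f3a at 812 and 1188 CPM, H3f3b at 888 and 904 CPM and H2afv at 494 and 503 CPM. Without the minimum of 10 CPM, 7 core histone rows were at least 2-fold higher in the traced library. That setting takes in rows of very few counts, and 11 of the 56 rows had 0 UMIs in the non-traced and 1 in the traced cells. The share of all genes at that setting is not given here, so nothing is read from this count.

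Factors that process histone messages or carry H1 showed no 2-fold difference either, where 0.784% of all genes were higher and 1.34% lower by that much. With shares this low, a count of 0 in such short lists is near that of all genes, and nothing is read from it. Of 11 genes for histone message 3′ processing 9 were compared and 0 called, with Slbp, which binds the stem-loop, at 52.4 and 40.3 CPM, Cpsf3, a nuclease that cuts the message, at 53.0 and 47.4 CPM, and Sympk, a scaffold of that complex, at 32.8 and 44.4 CPM. Of 10 histone chaperones 8 were compared and 0 called, with Set at 224 and 183 CPM, Npm1 at 489 and 468 CPM and Ptma at 1978 and 1881 CPM. Of 9 high mobility group genes, whose proteins compete with H1 for nucleosomes, 7 were compared and 0 called, with Hmgb1 at 1188 and 1021 CPM, Hmgb2 at 162 and 139 CPM and Hmgn1 at 796 and 766 CPM. Of 20 replication genes 7 were compared and 0 called, with the helicase subunits Mcm4 at 62.7 and 50.4 CPM, Mcm6 at 28.2 and 23.6 CPM and Mcm7 at 27.8 and 32.3 CPM. The median differences of these lists were 0.24 for processing, 0.07 for chaperones, 0.22 for high mobility group genes and 0.25 for replication, against 0.03 for all genes. Of 24 division genes 6 were compared and 3 passed 2-fold, all upward in the traced library, Mki67 (1.77 on the log2 scale), Top2a (1.39) and Ckap2l (1.34). The 12 unnamed dividing cells of the non-traced library were outside this comparison. In the merged cluster 17, which held dividing cells of both libraries, 0 of the 24 were higher and 3 lower in the traced cells. There 14.3% of all genes were higher and 13.2% lower. A list of 6 short RNAs without a poly(A) tail, added after the values had been seen, had 4 compared and 0 called, with Rn7sk at 32.7 and 26.2 CPM, Rny1 at 21.7 and 14.9 CPM and Rny3 at 17.8 and 15.1 CPM. Of the 4 other linker histones listed, 3 were in the tables (Hist1h1t, H1foo and Hils1) and 0 were compared, each at under 1 CPM in both groups.

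In the 21 dividing traced cells the named genes of these lists were set beside cells with 0 division genes. Counts over the core histone and replication lists are not given, since most of their rows reached 10 CPM only in the dividing cells and so had to differ. The 56 core histone rows together summed to 3814 CPM in the dividing cells against 1089 CPM. The 3 rows most abundant over all ependymal-like cells did not share this rise and did not reach 2-fold in either direction. Hist1h2bc was at 292 against 520 CPM, Hist1h4h at 204 against 226 CPM and Hist1h4i at 52.4 against 69.6 CPM. Slbp was at 590 against 45.2 CPM (3.68 on the log2 scale), while Cpsf3 was at 33.1 against 54.6 CPM and Sympk at 30.3 against 33.5 CPM. The replication genes Mcm4, Mcm6 and Mcm7 were at 207 against 58.9, 152 against 22.4 and 278 against 24.1 CPM. Of the chaperones, Set was at 496 against 221 CPM, Ptma at 4258 against 1937 CPM and Npm1 at 493 against 489 CPM. Of the high mobility group genes, Hmgb2 was at 2943 against 137 CPM, Hmgb1 at 2351 against 1187 CPM and Hmgn1 at 1193 against 793 CPM. The core histone variants H2afv, H3f3b and H3f3a differed by 2.05, 1.57 and 1.02 on the log2 scale. The 10 ependymal markers summed to 3982 CPM in the dividing cells and 7821 CPM in those with 0 division genes.

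The genes whose levels ran most like those of a member were taken from 24 groups, each the cells of 1 cluster in 1 library, among 13027 genes. The groups share libraries and depth, and the correlations of log2(CPM + 1) are descriptions. Hist1h1b was most like Spc24 (r = 0.96) and Mybl2 (0.95), and H1fx like Cenpq (0.93), Prdx5 (0.92) and Cenpp (0.92). In 1 group, the unnamed non-traced cluster 19 led by blood-cell genes, Hist1h1b was at 261 CPM, and in the other groups at most at 3.62 CPM. H1fx (94.2 CPM) and Hist1h1e (176 CPM) were also highest in that group, so these correlations lean on it. The 26 traced cells of cluster 19 were too few to form a group. Hist1h1e was most like Smek1 (0.92), Zwilch (0.90) and Cep170 (0.90), H1f0 like Ube2q1, Commd3 and Micall1 (0.87 each), and Hist1h1c, the least matched, like Cdc14a (0.69), Slc7a7 (0.69) and Pros1 (0.65). These neighbours depended on the groups taken. Over the 8 ependymal-like groups Hist1h1e was most like Whsc1l1, Tars and Rragb (0.99 to 0.98), over the 8 endothelial-like groups like Ccnt2, Zfp329 and Aldh9a1 (0.98 to 0.96), and for none of the 5 members did a gene among its 3 closest over all groups return among the 3 closest within a class.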

How the data were processed

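RNA of single cells was measured in 2 libraries by the 10x Chromium 3′ method. Per the labels and the submitters' processing notes, the authors aligned the reads to mm10 with the reporter sequences added, using Cell Ranger 3.0.2 and STAR 2.5.1b, and worked in R 3.6.0 and Seurat 3. The deposited values are raw counts of UMIs per gene and cell, with 233318692 UMIs in the non-traced and 46530507 in the traced library. The annotation release is not given in the sources used here. All 25411 and 4825 barcodes passed the study's filter (at least 50 genes, at most 10% mitochondrial among the genes detected). No doublet step is named, doublets were kept, and no caller was run.

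Here cells were integrated and clustered in Seurat 5.3.0 under R 4.3.3 (2000 variable features, 20 components, resolution 0.8, 21 clusters), with 79 histone and reporter rows kept out. The cells of 1 library in 1 cluster were named "X-like" from at least 3 markers seen in 50% of them, were called mixed where another class had 70% of its own markers so seen, and stayed unnamed where at least 3 of their top 10 genes were another class's markers and outnumbered their own, or where their median UMI count was under their library's divided by 3, with no marker of the class among those genes. These cut-offs were chosen with the data in view. Names so rebuilt may differ from the study's. Counts were summed over cells and scaled to UMIs per 1000000 UMIs of the group (CPM). Differences are in log2(CPM + 1), which understates those of low genes. Genes of at least 10 CPM in either group were compared, and those at least 2-fold apart are counted. A share or CPM without a UMI has a floor of 3 counts. Intervals are 95%, exact Poisson for CPM, exact conditional for ratios and Clopper-Pearson for shares (Python 3.11.15, scipy 1.17.1), and cover counting error only. With 1 library per group there is no p-value.

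The members and gene lists were chosen with earlier results of these data known. All 7 members are named. Of each other list, the 3 genes of highest mean CPM in the ependymal-like groups and any past 2-fold between the libraries are named, and for each member of at least 10 CPM the 3 genes with the highest Pearson correlation, of which 1 is not reported here. Promoters are from RefSeq, where all 7 members were matched, and genes and transcripts from GENCODE vM21. Alternatives covered integration, naming, mitochondrial share, pseudocount, CPM filter, scaling, division gene cut, thinning and cells with vascular markers. The groups by division genes, single dividing cells, reporter groups, clusters compared between libraries, levels by naming and short RNA list were added after the data had been seen.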

Additional observations from a re-analysis of the deposited data

How the results depend on the processing

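The Hist1h1e difference between the libraries in ependymal-like cells stayed past 2-fold under each alternative run, from 1.58 without integration to 1.96 without cells carrying 2 vascular markers, and that of Hist1h1b lay between 2.41 and 2.88 except for 0.42 under both other namings. Counts of members at least 2-fold higher depended more on the choices. For the counts below, the share of all genes past 2-fold under the same setting is not given here. They show how the calls moved, and nothing more is read from them. Without integration they were 1 in traced ependymal-like cells (2 as reported), 0 in traced endothelial-like cells (1), 4 in cycling non-traced cells (2) and 2 for non-traced ependymal-like over endothelial-like cells (1). With whole clusters named they were 1 in traced ependymal-like, 2 in traced endothelial-like and 0 in cycling traced cells (4), and 1 for traced ependymal-like over endothelial-like cells (3). With a minimum of 50 CPM they were 1, then 2 and 1 in cycling traced and non-traced cells, and 0 and 1 for ependymal-like over endothelial-like cells of the non-traced and traced library. Without a minimum they were 4 in traced ependymal-like cells, 3 in traced endothelial-like cells and 2 for non-traced ependymal-like over endothelial-like cells, and 7 core histone rows were higher (0). With the median difference set to 0, 0 members were higher in traced endothelial-like cells (1 as reported). The share of all calls there that were higher was 70.3% in place of 79.1%. A cut at 5 division genes left 54 traced and 5 non-traced cycling cells (451 and 30) with 7 and 4 members higher, thinning to 4000 UMIs left 90 and 11 cells, and the added cut at 10 left 21 and 2. Without cells carrying 2 vascular markers, 1 member was higher in cycling non-traced cells, and H1fx there turned to -0.50 from 1.16. Of the other single values, 313 moved by less than their counting interval and 71 by more, and 16 shares of cells moved with the thinning. Apart from namings and minimums, which change the cells or genes compared, the cause was not tested. No paired analysis was possible because each group had 1 library. Depth limits Hist1h1a and Hist1h1d outside dividing cells, and all members in the 53 traced endothelial-like cells.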
